A study of Arabidopsis thaliana with 8 samples.

Results

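The genes described are 35 loci of the cell division machinery of Arabidopsis thaliana. They comprise the kinase CDKA;1, the 4 CDKB kinases, 8 B-type, 5 A-type and 6 D-type cyclins, the 7 KRP inhibitors, the inhibitors SIM and SMR1, the kinase WEE1 and the cytokinesis syntaxin KNOLLE. They were chosen by locus, as known genes of each class, from the 33674 features of a read count table. Earlier results of these data were known when they were chosen. The libraries came from whole 13-day-old Col-0 wild-type seedlings and skip-1 mutant seedlings grown in 16 h of light and 8 h of dark. A 3 h treatment used abscisic acid (ABA) at 0 or 100 µM. The groups are called WT mock, WT ABA, skip-1 mock and skip-1 ABA, where mock means 0 µM ABA, and each had 2 libraries. All groups share the Columbia background, and the sources used here do not give the lesion of skip-1. It was the only mutant line, so an effect of the mutation cannot be told apart from other differences of that line. The labels do not say that replicates were separate cultures, and p-values therefore measure the spread between these libraries.

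SKIP, the gene the mutant is named for, was measured at 150 and 163 CPM (counts scaled to library size) in WT mock and at 104 and 133 CPM in skip-1 mock. In WT ABA it was measured at 136 and 161 CPM, and in skip-1 ABA at 108 and 125 CPM. Every skip-1 library was below every wild-type library of the same treatment, with log2 fold changes of −0.40 ± 0.15 without ABA and −0.35 ± 0.15 with it, and neither passed the test (edgeR, adjusted p = 0.0822 and 0.1002). Libraries held 20870110 to 23640113 counted reads, and libraries of 1 group resembled each other more than those of different groups (across genes, r of at least 0.983 within groups and at most 0.959 between them). All 35 loci passed the filter on low counts, as did 21008 features in all. The chlorophyll-binding protein gene CAB2 and the Rubisco small subunit gene RBCS1A, defining genes of green tissue, summed to 7914 to 16412 CPM over the libraries. CAB2 (AT1G29920) itself was measured at 984 and 417 CPM in WT mock, 546 and 282 in WT ABA, 4272 and 3284 in skip-1 mock, and 2283 and 1601 in skip-1 ABA. Every skip-1 library was above every wild-type library, by 2.43 ± 0.50 on the log2 scale without ABA and by 2.23 ± 0.50 with it (edgeR, adjusted p = 0.0203 and 0.0185). The former was not called without WT mock replicate 2, skip-1 mock replicate 1 or skip-1 mock replicate 2 (up to 0.103) or with no filter on low counts (adjusted p = 0.052), and the latter was not called without WT ABA replicate 2 or skip-1 ABA replicate 1 (up to 0.0833). The part of green tissue in the differences between genotypes was not tested.

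Cyclins are the regulatory partners of cyclin-dependent kinases (CDKs). In plants, D-type cyclins with CDKA act at entry into the cycle, where they phosphorylate the retinoblastoma-related protein RBR1 and release E2F factors, while A- and B-type cyclins with CDKA and the plant-specific CDKB kinases act in S phase and at mitosis. KRP and SIAMESE-type proteins bind and inhibit these complexes, and ABA is known as a stress hormone that restrains growth and division in seedlings.

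Promoters of many B-type cyclins carry the mitosis-specific activator (MSA) element, whose core AACGG is bound by MYB3R transcription factors. The 250 bases before the annotated start were read from the RefSeq assembly TAIR10.1 for all 35 loci, and those of 5 B-type cyclins are shown because this class held the most copies and differed within itself. They are written 5′ to 3′ on the strand of the gene, and capitals mark AACGG on either strand, so that CCGTT is a copy on the other strand. The windows are CYCB1;1 at chr4:17624309-17624558 (minus strand), CYCB1;2 at chr5:1861704-1861953 (minus), CYCB2;2 at chr4:16901346-16901595 (plus), CYCB2;3 at chr1:7137829-7138078 (minus) and CYCB2;4 at chr1:28630790-28631039 (minus), and none of them lies over another annotated gene.
CYCB1;1: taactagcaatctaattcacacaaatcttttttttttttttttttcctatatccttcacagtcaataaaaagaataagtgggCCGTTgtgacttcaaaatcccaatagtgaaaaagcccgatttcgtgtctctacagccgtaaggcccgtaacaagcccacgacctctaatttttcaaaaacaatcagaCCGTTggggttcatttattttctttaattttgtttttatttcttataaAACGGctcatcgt
CYCB1;2: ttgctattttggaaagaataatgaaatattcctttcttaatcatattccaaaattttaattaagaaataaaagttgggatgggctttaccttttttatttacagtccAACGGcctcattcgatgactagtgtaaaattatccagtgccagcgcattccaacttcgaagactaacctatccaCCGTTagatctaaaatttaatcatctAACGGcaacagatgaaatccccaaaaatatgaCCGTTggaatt
CYCB2;2: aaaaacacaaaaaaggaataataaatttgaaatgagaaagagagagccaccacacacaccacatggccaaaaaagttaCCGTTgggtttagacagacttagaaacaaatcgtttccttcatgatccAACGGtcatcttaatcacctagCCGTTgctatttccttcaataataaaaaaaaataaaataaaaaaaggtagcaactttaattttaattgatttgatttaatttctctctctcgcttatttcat
CYCB2;3: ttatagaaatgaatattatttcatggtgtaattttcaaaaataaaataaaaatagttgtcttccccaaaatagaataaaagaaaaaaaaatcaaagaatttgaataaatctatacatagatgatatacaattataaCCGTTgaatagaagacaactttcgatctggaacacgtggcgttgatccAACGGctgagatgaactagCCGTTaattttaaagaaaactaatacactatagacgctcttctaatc
CYCB2;4: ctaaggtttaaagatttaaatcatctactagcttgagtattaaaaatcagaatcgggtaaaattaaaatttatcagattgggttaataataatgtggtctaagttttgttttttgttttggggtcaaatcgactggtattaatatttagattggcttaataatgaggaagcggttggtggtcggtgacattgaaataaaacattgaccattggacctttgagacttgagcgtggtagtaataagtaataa
CYCB1;2 held 4 copies, each preceded by CT or CC, and the other 3 with the core held 3 copies each. The window of CYCB2;4 held none. Each window lies before the outermost annotated start, and CYCB2;4 has 3 annotated starts, so copies near its other starts would be missed. Whether the core goes with the response to ABA was not tested.

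Copies of AACGG stood in the windows of 6 of the 8 B-type cyclins (75%), each with at least 3, and neither CYCB1;4 nor CYCB2;4 held one. Of 27437 protein-coding genes, 20.6% held the core within the same length and 3.62% held more than 1 copy. Among the other classes it was present in 3 of 5 A-type cyclins, 4 of 7 KRP genes, 1 of 4 CDKB genes and 1 of 6 D-type cyclins, with 6 copies in KRP1. KNOLLE and WEE1 held 1 copy each, and CDKA;1, SIM and SMR1 held none. In all, 17 of the 35 genes held the core (48.6%). The longer forms CTAACGG and CCAACGG, searched on both strands, were in 2.58% of all promoters, in the same 6 B-type cyclins and in no other of the 35 genes. These longer forms contain the core and are counted within it. An E2F motif, TTTCCCGC or TTTGGCGC, was in 0.959% of all promoters and in 1 of the 35, CYCD3;3. ACGTGG or ACGTGT, the letters of many ABA-responsive elements, were in 16% of all promoters and in 9 of the 35 (25.7%). A match describes letters in this window and is not evidence of binding.

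**Figure D1:**
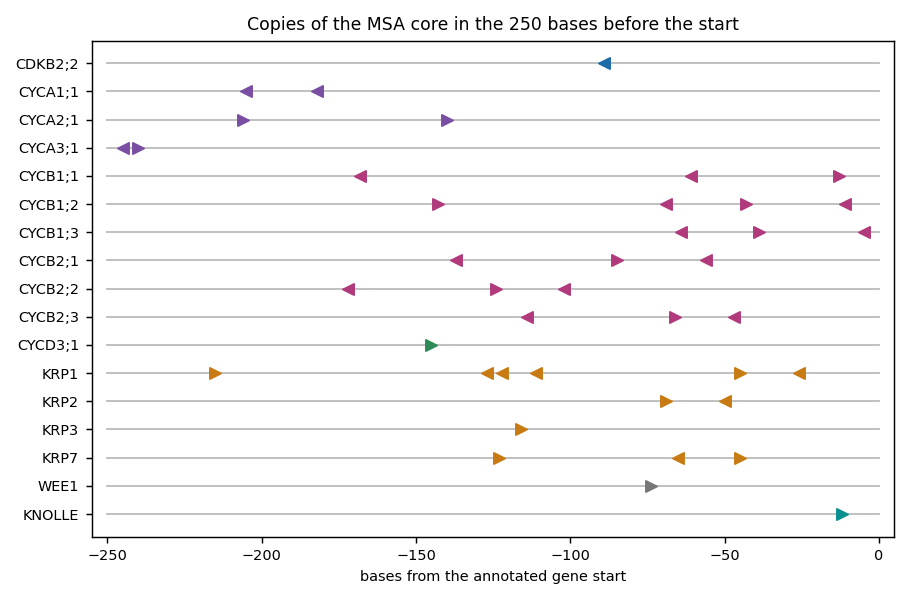
Positions of AACGG in the 250 bases before the annotated start of the genes that hold it, with the distance from the start in bases on the horizontal axis and 1 line per gene. The 6 B-type cyclins hold 3 or 4 copies each and KRP1 holds 6.

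Gene coordinates are those of RefSeq TAIR10.1. Levels between genes were compared only per length, by the FPKM of the authors' table. In WT mock the highest of the 35 was CDKA;1, the single A-type CDK, at 40.2 ± 3.09 FPKM (SD, n = 2), followed by SIM at 34.5 ± 5.95, SMR1 at 31.1 ± 0.17 and CYCD3;2 at 28.6 ± 0.02 FPKM. CDKA;1 and SIM differed by about the spread between libraries, and SMR1 lay within 1 SD of SIM. KNOLLE followed at 25.5 ± 3.71 FPKM. WEE1 at 2.58 ± 0.09, CYCB2;1 at 0.93 ± 0.27 and CYCA2;1 at 0.58 ± 0.09 FPKM were lowest. B-type cyclins covered 0.93 to 12.4 FPKM and D-type cyclins 3.01 to 28.6 FPKM.

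**Figure D2:**
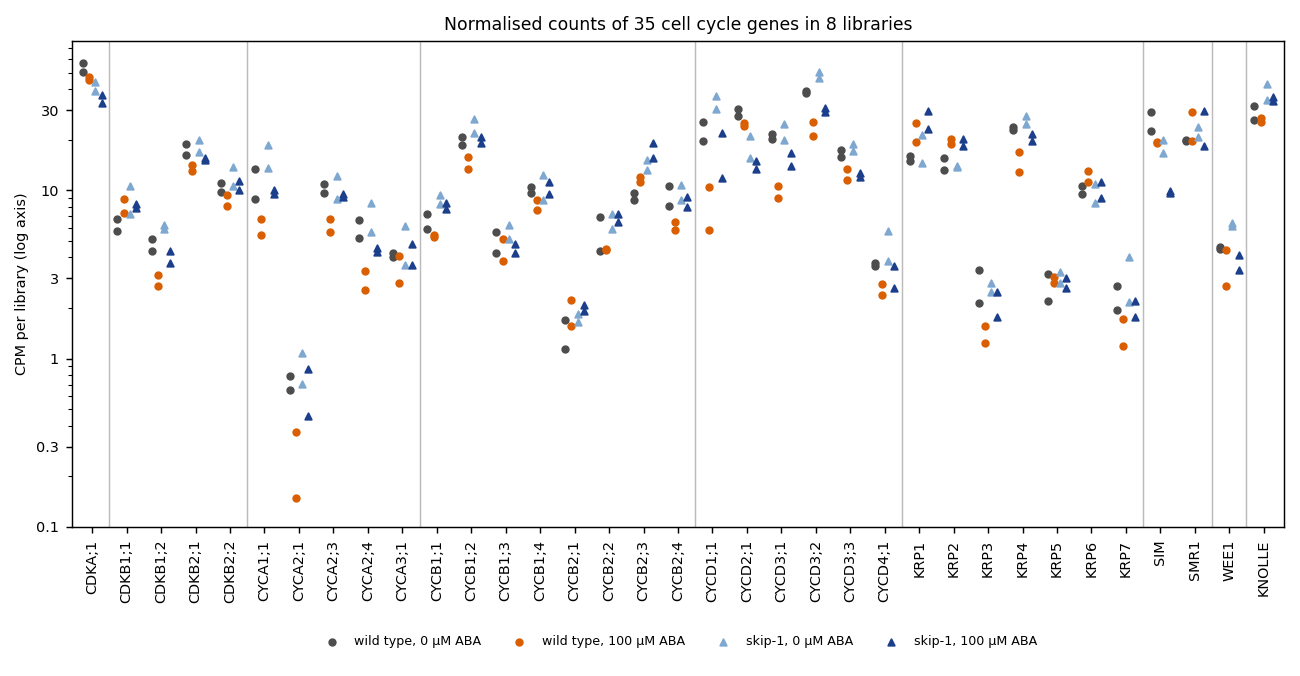
CPM of the 35 genes in each of the 8 libraries on a log axis, with genes grouped by class and 1 point per library. The 4 ABA libraries lie below the mock libraries of their genotype for all 6 D-type cyclins and, among A-type cyclins, for CYCA1;1 and CYCA2;4 in both genotypes, and CYCA2;1 is the least abundant gene.

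Differences are given as log2 fold changes ± standard error from edgeR. With ABA, A- and D-type cyclin transcripts tended to be lower in both genotypes, and the D-type cyclins CYCD3;1 and CYCD3;2 were the clearest cases. B-type cyclins in skip-1 had 5 negative and 3 positive values with ABA, with a median of −0.08. In wild type, 13 of the 35 genes fell and 1 rose. Of all tested genes, 19.5% fell and 23.7% rose in that comparison (43.1% in all). With all libraries the members' share that fell, 37.1%, was therefore above the background, and the share that rose was below it. These shares only describe genes that were chosen with earlier results of these data known. In skip-1, 7 of 35 fell against a background of 12.1%, and 1 rose against 16.3% (28.5% of all genes in both directions). The members' median log2 fold change was −0.35 in wild type, where that of all genes was −0.01, and −0.27 in skip-1, where that of all genes was −0.02. Values were negative for 27 of 35 in wild type and for 28 of 35 in skip-1. Both ABA libraries lay below both mock libraries for 23 genes in wild type (36.9% of all genes) and for 16 in skip-1 (34% of all genes). They lay above for 5 (36.8%) and 4 (33%). These are whole seedlings, so fewer dividing cells and less RNA per cell cannot be told apart.

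These counts moved with single libraries. Without WT mock replicate 1, 4 genes fell in wild type, which is 11.4% beside 14.1% of all genes in the same fit. Without WT ABA replicate 2 it was 5, or 14.3% beside 15.7%, so in both fits the members' share was below the background. Without WT ABA replicate 1 it was 8 (22.9% beside 13% of all genes), and 10 to 14 fell without each of the others (28.6% to 40% beside 13.6% to 20.8%). The 1 gene that rose, KRP2, lost that call without WT mock replicate 1 and without either WT ABA library. In skip-1, 2 genes fell without skip-1 ABA replicate 2 and 3 without skip-1 mock replicate 1, or 5.71% and 8.57% beside 5.67% and 9.73% of all genes, so these shares were at or below the background. Without skip-1 ABA replicate 1 it was 4 (11.4% beside 6.53%), and 5 or 6 fell without each of the others (14.3% to 17.1% beside 6.75% to 11.5%). Scaling by library size alone moved the median of all genes in wild type from −0.01 to −0.22, and then 18 members fell and none rose in wild type, while of all genes 6658 fell and 3743 rose in place of 4087 and 4974. Relative to the median of all genes, the members' median was then −0.34, as it was with the main scaling (−0.33).

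**Figure D3:**
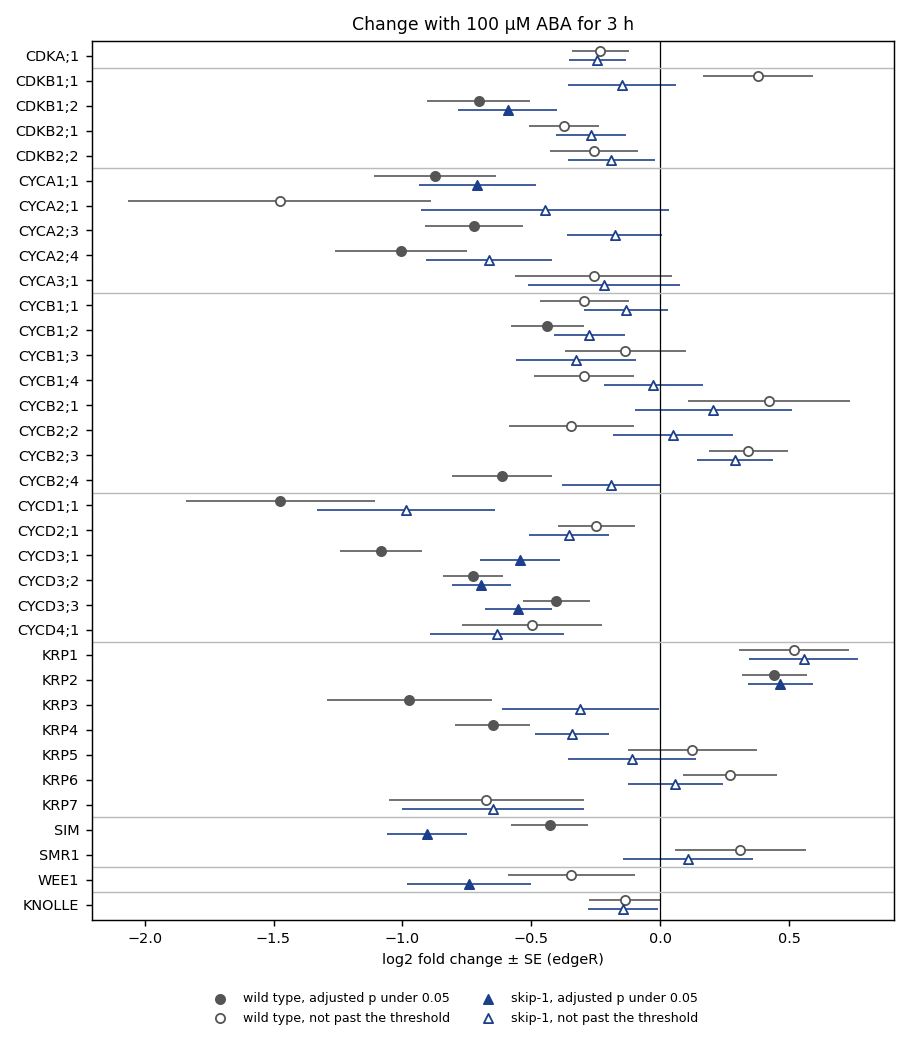
Log2 fold change of each of the 35 genes with ABA, with its standard error, in wild type and in skip-1, where filled points passed an adjusted p of 0.05. Values below 0 are lower with ABA; D-type and A-type cyclins lie below 0 in both genotypes, and KRP1 and KRP2 lie above it.

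Compared with wild type, skip-1 seedlings had lower SIM, CYCD2;1 and CDKA;1 and higher CYCB2;3 under both treatments, and with ABA also higher levels of several other cyclins. Without ABA, 3 of 35 genes were lower in skip-1 (10% of all genes) and 1 was higher (10.4%), in all a smaller share than the 20.5% of all genes that differed. With ABA, 3 were lower (17.4%) and 8 were higher (13.6%), where 31% of all genes differed in either direction. The genes that were higher with ABA included 3 B-type and 2 D-type cyclins, 1 A-type cyclin, KNOLLE and KRP4. Medians of the log2 fold change were 0.22 without ABA and 0.33 with it, against 0.02 and −0.02 for all genes, and 29 and 26 of 35 values were positive. Both skip-1 libraries were above both wild-type libraries for 13 genes without ABA (32.6% of all genes) and for 20 with ABA (32.7%). For 3 genes in each comparison (30.4% and 37.1% of all genes) they were below.

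Here too the counts rested on few libraries. The 8 genes higher with ABA became 0 without WT ABA replicate 1, 1 without skip-1 ABA replicate 1 and 2 without skip-1 ABA replicate 2, where 6.46%, 7.14% and 7.84% of all genes were higher, so the members' shares of 0%, 2.86% and 5.71% were below the background. It was 3 without WT ABA replicate 2 (8.57% beside 7.94%) and 6 to 9 without each of the others (17.1% to 25.7% beside 11.7% to 15.8%). No gene was called lower without ABA when WT mock replicate 2 or skip-1 mock replicate 1 was left out, and 1 or 2 were without each of the others (2.86% or 5.71% beside 5.04% to 8.95% of all genes). The single gene called higher without ABA, CYCB2;3, lost that call without either WT mock library or without skip-1 mock replicate 1. The members' median without ABA fell from 0.22 to 0.05 without skip-1 mock replicate 1 and was 0.15 to 0.35 without each of the other 3 mock libraries. Scaling by library size alone gave 2 lower and 10 higher members with ABA, while 2493 of all genes were lower and 4180 higher in place of 3649 and 2855.

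**Figure D4:**
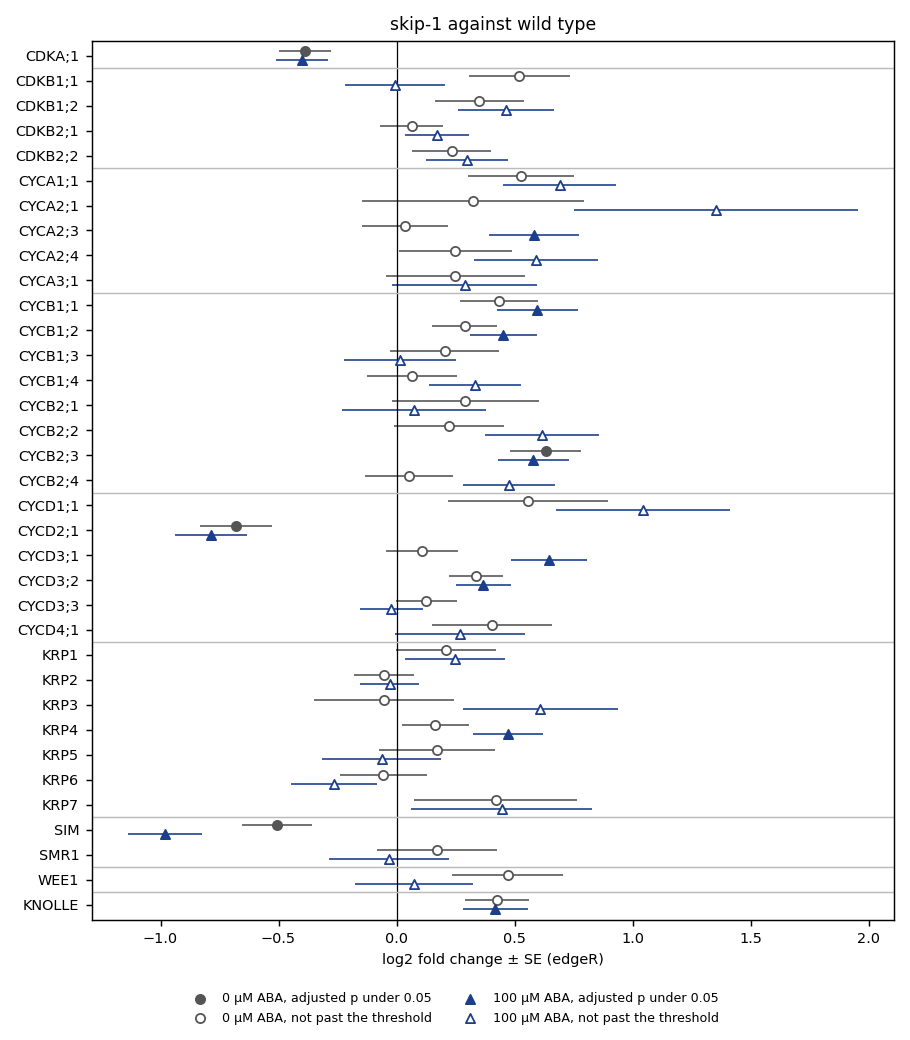
Log2 fold change of each of the 35 genes in skip-1 relative to wild type, with its standard error, without and with ABA, where filled points passed an adjusted p of 0.05. SIM, CYCD2;1 and CDKA;1 lie below 0 under both treatments, and most cyclins lie above it.

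The difference between the ABA responses of the genotypes, tested as an interaction, was called for none of the 35 genes (edgeR quasi-likelihood test), where 3.07% of all genes were called (2.27% lower and 0.8% higher). At an unadjusted p under 0.05, 1 gene was higher, CYCD3;1, and 0 were lower, and DESeq2 gave 0 at both thresholds. A gene called in 1 genotype and not in the other is therefore not shown to respond differently.

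D-type cyclins link growth signals to entry into division, and all 6 had negative values with ABA in both genotypes. Of these, 4 fell in wild type (19.5% of all genes, class median −0.61) and 3 in skip-1 (12.1% of all genes, class median −0.59). CYCD3;1 (AT4G34160, chr4:16357421-16359565), a cytokinin- and sugar-responsive cyclin that keeps leaf cells dividing, was measured at 21.5 and 20.05 CPM in WT mock, 8.96 and 10.7 in WT ABA, 24.8 and 19.9 in skip-1 mock, and 16.6 and 14.04 in skip-1 ABA. The ABA libraries were below the mock libraries in both genotypes, and WT ABA was the lowest group. The log2 fold change with ABA was −1.08 ± 0.16 in wild type (edgeR, adjusted p = 0.000757) and −0.55 ± 0.16 in skip-1 (adjusted p = 0.03), and with ABA it was higher in skip-1 by 0.65 ± 0.16 (adjusted p = 0.0176). The interaction was 0.54 ± 0.22 (adjusted p = 0.229). CYCD3;2 (AT5G67260, chr5:26836139-26839597), its paralog with an overlapping role in leaves, was measured at 38.1 and 38.7 CPM in WT mock, 20.9 and 25.5 in WT ABA, 50.4 and 46.5 in skip-1 mock, and 29.1 and 30.8 in skip-1 ABA. The ABA libraries were again below the mock libraries, and skip-1 was above wild type under both treatments. It fell by 0.73 ± 0.12 in wild type (adjusted p = 0.00117) and by 0.70 ± 0.11 in skip-1 (adjusted p = 0.0026), and it was higher in skip-1 with ABA by 0.37 ± 0.12 (adjusted p = 0.0429).

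CYCD3;3 (AT3G50070, chr3:18565134-18566834), the other member of the CYCD3 group, was measured at 17.4 and 15.8 CPM in WT mock, 11.6 and 13.5 in WT ABA, 18.9 and 17.2 in skip-1 mock, and 12.6 and 12.04 in skip-1 ABA. Mock libraries were above ABA libraries in each genotype, while the genotypes overlapped. Its values with ABA were −0.40 ± 0.13 in wild type and −0.55 ± 0.13 in skip-1 (edgeR, adjusted p = 0.0348 and 0.0141). CYCD1;1 (AT1G70210, chr1:26439556-26443007) was measured at 25.6 and 19.7 CPM in WT mock, 10.5 and 5.798 in WT ABA, 36.2 and 30.5 in skip-1 mock, and 21.8 and 11.9 in skip-1 ABA. ABA libraries were below mock libraries in both genotypes, with a wide spread between the ABA libraries of each. The value with ABA in wild type was −1.47 ± 0.37 (adjusted p = 0.0165), the lowest of the 6 D-type cyclins. In skip-1 its value was −0.99 ± 0.35 (adjusted p = 0.0767). CYCD2;1 (AT2G22490, chr2:9553797-9556167), a cyclin known to act in root meristems and lateral root formation, was measured at 27.8 and 30.4 CPM in WT mock, 25.04 and 23.97 in WT ABA, 15.5 and 20.9 in skip-1 mock, and 13.4 and 14.99 in skip-1 ABA. All 4 skip-1 libraries were below all 4 wild-type libraries. It was lower in skip-1 by 0.68 ± 0.15 on the log2 scale without ABA (adjusted p = 0.0162) and by 0.79 ± 0.15 with it (adjusted p = 0.00659). CYCD4;1 (AT5G65420, chr5:26141470-26144020), known from lateral roots and the stomatal lineage of the hypocotyl, was measured at 3.57 and 3.69 CPM in WT mock, 2.38 and 2.77 in WT ABA, 5.77 and 3.81 in skip-1 mock, and 3.55 and 2.63 in skip-1 ABA. Its ABA libraries were below its mock libraries in both genotypes, and none of its 4 comparisons was called (smallest adjusted p = 0.101, with ABA in skip-1).

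Summed over the class, D-type cyclins held 134 and 128 CPM in WT mock, 79.4 and 82.2 in WT ABA, 152 and 139 in skip-1 mock and 97.1 and 86.4 in skip-1 ABA. The calls of CYCD3;1 and CYCD3;2 in wild type, CYCD3;2 in skip-1 and CYCD2;1 with ABA passed without each library in turn. With a library left out, no call was made for CYCD3;1 with ABA in skip-1 (without skip-1 mock replicate 1 or skip-1 ABA replicate 2, adjusted p as high as 0.173) and for CYCD3;1 between genotypes with ABA (without WT ABA replicate 1 or skip-1 ABA replicate 1, adjusted p as high as 0.107). The same held for CYCD3;2 between genotypes with ABA (without WT mock replicate 1 or 2, WT ABA replicate 1 or skip-1 ABA replicate 1 or 2, adjusted p as high as 0.216) and for CYCD3;3 with ABA in wild type (without WT mock replicate 1 or 2, WT ABA replicate 1 or skip-1 ABA replicate 1 or 2, adjusted p as high as 0.15). It also held for CYCD3;3 with ABA in skip-1 (without skip-1 mock replicate 1 or skip-1 ABA replicate 1 or 2, adjusted p as high as 0.0844), for CYCD1;1 with ABA in wild type (without WT mock replicate 1 or WT ABA replicate 2, adjusted p as high as 0.079) and for CYCD2;1 between genotypes without ABA (without WT mock replicate 2 or skip-1 mock replicate 1, adjusted p as high as 0.0978). DESeq2 did not call CYCD3;3 in wild type (adjusted p = 0.0697) or CYCD3;2 between genotypes with ABA (adjusted p = 0.077), and it called CYCD1;1 with ABA in skip-1 (adjusted p = 0.00789).

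A-type cyclins act from S phase into mitosis, and all 5 had negative values with ABA in both genotypes and positive values in skip-1 under both treatments. Class medians with ABA were −0.87 in wild type, where 3 fell (19.5% of all genes), and −0.45 in skip-1, where 1 fell (12.1%). CYCA1;1 (AT1G44110, chr1:16774765-16777352), which is transcribed toward mitosis, was measured at 13.4 and 8.91 CPM in WT mock, 6.73 and 5.43 in WT ABA, 18.5 and 13.6 in skip-1 mock, and 10.1 and 9.54 in skip-1 ABA. ABA libraries were below mock libraries in both genotypes, although the WT mock libraries differed widely. It fell by 0.87 ± 0.24 in wild type and by 0.71 ± 0.23 in skip-1 (edgeR, adjusted p = 0.0169 and 0.0464). CYCA2;3 (AT1G15570, chr1:5361865-5365559), which with CDKB1;1 is known to hold back endoreduplication, was measured at 10.9 and 9.64 CPM in WT mock, 5.64 and 6.79 in WT ABA, 12.1 and 8.89 in skip-1 mock, and 9.06 and 9.54 in skip-1 ABA. WT ABA was the lowest group and did not overlap any other. Its value with ABA in wild type was −0.72 ± 0.19 (adjusted p = 0.014), and with ABA it was higher in skip-1 by 0.58 ± 0.19 (adjusted p = 0.0476).

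CYCA2;4 (AT1G80370, chr1:30213705-30217102), of the same A2 group, was measured at 6.65 and 5.18 CPM in WT mock, 3.32 and 2.56 in WT ABA, 8.37 and 5.64 in skip-1 mock, and 4.55 and 4.32 in skip-1 ABA. Mock libraries were above ABA libraries in each genotype. It fell by 1.01 ± 0.26 in wild type (edgeR, adjusted p = 0.0125), and its value in skip-1 was −0.66 ± 0.24 (adjusted p = 0.0745). CYCA2;1 (AT5G25380, chr5:8814517-8817887), also of the A2 group, was measured at 0.789 and 0.648 CPM in WT mock, 0.148 and 0.366 in WT ABA, 1.08 and 0.705 in skip-1 mock, and 0.865 and 0.454 in skip-1 ABA, which is 3 to 27 reads per library. Its value with ABA in wild type was −1.48 ± 0.59 (adjusted p = 0.0722) and missed the threshold, while both WT ABA libraries were below every other library. With scaling by library size alone the adjusted p was 0.0439. CYCA3;1 (AT5G43080, chr5:17292952-17295024), of an A-type group linked to S phase, was measured at 4.03 and 4.21 CPM in WT mock, 4.06 and 2.82 in WT ABA, 6.13 and 3.62 in skip-1 mock, and 4.83 and 3.59 in skip-1 ABA. Its groups overlapped in all 4 comparisons, and its smallest adjusted p was 0.503. Each of the 5 calls of the class was lost when certain single libraries were left out. This applied to CYCA1;1 with ABA in wild type (without WT mock replicate 1 or WT ABA replicate 2, adjusted p as high as 0.106) and to CYCA1;1 with ABA in skip-1 (without WT ABA replicate 1 or 2, skip-1 mock replicate 1 or skip-1 ABA replicate 1 or 2, adjusted p as high as 0.203). It applied as well to CYCA2;3 with ABA in wild type (without WT mock replicate 1 or WT ABA replicate 1, adjusted p as high as 0.0821), to CYCA2;3 between genotypes with ABA (without WT mock replicate 1 or 2, WT ABA replicate 1 or 2 or skip-1 ABA replicate 1 or 2, adjusted p as high as 0.213) and to CYCA2;4 with ABA in wild type (without WT mock replicate 1 or WT ABA replicate 2, adjusted p as high as 0.0742). DESeq2 did not call CYCA2;3 between genotypes with ABA (adjusted p = 0.0652).

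B-type cyclins drive entry into mitosis. With ABA, 2 of the 8 fell in wild type (19.5% of all genes) and none in skip-1 (12.1%). All 8 had positive values in skip-1 relative to wild type, without and with ABA. Class medians were −0.30 with ABA in wild type and −0.08 in skip-1, and 0.26 and 0.46 for skip-1 against wild type without and with ABA. CYCB1;1 (AT4G37490, chr4:17621886-17624308), the usual marker of cells in G2 and mitosis and also a gene induced by DNA damage, was measured at 7.23 and 5.87 CPM in WT mock, 5.24 and 5.43 in WT ABA, 9.38 and 8.32 in skip-1 mock, and 8.38 and 7.77 in skip-1 ABA. Both skip-1 groups were above both wild-type groups. It was higher in skip-1 by 0.60 ± 0.17 with ABA (edgeR, adjusted p = 0.0293), and its value without ABA was 0.44 ± 0.17 (adjusted p = 0.096). CYCB1;2 (AT5G06150, chr5:1859279-1861703), whose promoter held 4 copies of the MSA core, was measured at 20.9 and 18.6 CPM in WT mock, 15.7 and 13.4 in WT ABA, 26.4 and 21.8 in skip-1 mock, and 19.2 and 20.7 in skip-1 ABA. WT ABA was the lowest group, below every other library. It fell by 0.44 ± 0.14 with ABA in wild type (adjusted p = 0.0336) and was higher in skip-1 with ABA by 0.45 ± 0.14 (adjusted p = 0.0408).

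CYCB2;3 (AT1G20610, chr1:7134659-7137828), with 3 copies of the core, was measured at 9.596 and 8.71 CPM in WT mock, 11.2 and 12.01 in WT ABA, 15.2 and 13.2 in skip-1 mock, and 15.5 and 19.1 in skip-1 ABA. Its ABA libraries were above its mock libraries in both genotypes, but neither difference was called. All skip-1 libraries were above all wild-type libraries, by 0.63 ± 0.15 without ABA (edgeR, adjusted p = 0.0209) and by 0.58 ± 0.15 with it (adjusted p = 0.02). CYCB2;4 (AT1G76310, chr1:28627694-28630789), without a copy of the core, was measured at 10.7 and 8.101 CPM in WT mock, 5.79 and 6.48 in WT ABA, 10.7 and 8.7 in skip-1 mock, and 7.92 and 9.13 in skip-1 ABA. WT ABA was below every other library. It fell by 0.61 ± 0.19 with ABA in wild type (adjusted p = 0.0316), and its value in skip-1 was −0.19 ± 0.19 with overlapping libraries. CYCB2;2 (AT4G35620, chr4:16901596-16904001), with 3 copies, was measured at 6.94 and 4.37 CPM in WT mock, 4.404 and 4.49 in WT ABA, 7.25 and 5.93 in skip-1 mock, and 7.196 and 6.45 in skip-1 ABA. WT ABA overlapped WT mock, both skip-1 ABA libraries were above it, and the smallest adjusted p was 0.0824 for that difference of 0.62 ± 0.24. CYCB1;4 (AT2G26760, chr2:11401118-11403433), without a copy, was measured at 9.596 and 10.5 CPM in WT mock, 7.62 and 8.77 in WT ABA, 12.3 and 8.7 in skip-1 mock, and 11.2 and 9.45 in skip-1 ABA. WT ABA libraries were the lowest here except that skip-1 mock replicate 2 lay between them, and no comparison was called (smallest adjusted p = 0.225). CYCB1;3 and CYCB2;1, with 3 copies each, ranged over 3.81 to 6.21 CPM and 1.13 to 2.23 CPM, and none of their comparisons was called.

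Each of the 6 B-type calls was lost when certain single libraries were left out. Calls were absent for CYCB1;1 between genotypes with ABA (without WT ABA replicate 1 or 2 or skip-1 ABA replicate 1 or 2, adjusted p as high as 0.128), for CYCB1;2 with ABA in wild type (without WT mock replicate 1 or 2 or WT ABA replicate 2, adjusted p as high as 0.147) and for CYCB1;2 between genotypes with ABA (without WT mock replicate 1 or 2, WT ABA replicate 1 or 2 or skip-1 ABA replicate 1 or 2, adjusted p as high as 0.19). They were absent too for CYCB2;3 between genotypes without ABA (without WT mock replicate 1 or 2 or skip-1 mock replicate 1, adjusted p as high as 0.129), for CYCB2;3 between genotypes with ABA (without WT ABA replicate 1 or 2 or skip-1 ABA replicate 2, adjusted p as high as 0.132) and for CYCB2;4 with ABA in wild type (without WT mock replicate 1 or WT ABA replicate 1 or 2, adjusted p as high as 0.179). DESeq2 called neither CYCB1;1 nor CYCB1;2 between genotypes with ABA (adjusted p = 0.0564 and 0.0613). The summed class was 72.2 and 61.6 CPM in WT mock, 57.3 and 56.0 in WT ABA, 89.1 and 73.6 in skip-1 mock and 76.3 and 78.7 in skip-1 ABA.

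Replicate 1 of both mock groups ran high for the mitotic genes, meaning the 18 CDKB, A-type and B-type cyclin and KNOLLE genes. In WT mock, 16 of these 18 were higher in replicate 1, with a median log2 ratio of 0.26, and in skip-1 mock it was again 16 of 18, with a median of 0.31. In each ABA group it was 10 of 18. Over all genes, replicate 1 was higher for 50.3% in WT mock and 49.4% in skip-1 mock. The part of this difference in the results was not tested, and the values without each library are those given beside the calls.

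KNOLLE (AT1G08560, chr1:2709525-2711000), the syntaxin that fuses vesicles at the growing cell plate, was measured at 31.6 and 26.1 CPM in WT mock, 26.8 and 25.5 in WT ABA, 42.9 and 34.5 in skip-1 mock, and 35.9 and 34.1 in skip-1 ABA. Skip-1 was above wild type under both treatments, while ABA and mock libraries overlapped in both genotypes. With ABA it was higher in skip-1 by 0.42 ± 0.14 (edgeR, adjusted p = 0.0476), and without ABA its value was 0.43 ± 0.14 (adjusted p = 0.0571). With a library left out, no call was made for KNOLLE between genotypes with ABA (without WT ABA replicate 1 or 2 or skip-1 ABA replicate 1 or 2, adjusted p as high as 0.172), nor did DESeq2 make it (adjusted p = 0.0602). KNOLLE overlaps the opposite-strand gene AT1G08550 by 464 bases, and that gene held 1136 to 2079 reads per library. The sources used here do not say whether counting used strand, so reads of overlapping opposite-strand genes cannot be told apart. Of the 35 genes, 12 overlap another annotated gene. The neighbour is on the opposite strand for 11, namely the 4 CDKB genes, CYCA2;3, CYCD1;1, CYCD3;2, KNOLLE, KRP4, SIM and SMR1, and CYCD3;1 shares 40 bases with a gene on its own strand. The neighbour of CYCD1;1 held 0 reads in every library, that of CYCD3;2 0 to 2 and that of CYCA2;3 5 to 75.

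CDKA;1 (AT3G48750, chr3:18071454-18074641), the main CDK of the whole cycle, was measured at 50.8 and 57.5 CPM in WT mock, 45.03 and 47.1 in WT ABA, 38.98 and 43.7 in skip-1 mock, and 32.97 and 36.8 in skip-1 ABA. Each group was below the one before it in the order WT mock, WT ABA, skip-1 mock and skip-1 ABA, with none overlapping. It was lower in skip-1 by 0.39 ± 0.11 on the log2 scale without ABA and by 0.40 ± 0.11 with it (edgeR, adjusted p = 0.0392 and 0.0261). Its values with ABA were −0.23 ± 0.11 and −0.24 ± 0.11, and neither was called. Neither call held throughout, and none was made for CDKA;1 between genotypes without ABA (without each library in turn, adjusted p as high as 0.216) or for CDKA;1 between genotypes with ABA (without WT ABA replicate 1 or 2 or skip-1 ABA replicate 1 or 2, adjusted p as high as 0.154). With scaling by library size alone the difference with ABA gave an adjusted p of 0.0866, and with DESeq2 the difference without ABA gave 0.0565.

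CDKB kinases, found in plants and algae, act around mitosis. With ABA, 1 of the 4 fell in each genotype (19.5% of all genes in wild type and 12.1% in skip-1). CDKB1;2 (AT2G38620, chr2:16152473-16154086) was measured at 5.15 and 4.37 CPM in WT mock, 3.12 and 2.72 in WT ABA, 5.89 and 6.25 in skip-1 mock, and 3.69 and 4.36 in skip-1 ABA. ABA libraries were below mock libraries in both genotypes. It fell by 0.71 ± 0.20 in wild type and by 0.59 ± 0.19 in skip-1 (edgeR, adjusted p = 0.0204 and 0.049). Leaving out libraries removed the calls for CDKB1;2 with ABA in wild type (without WT mock replicate 1 or WT ABA replicate 2, adjusted p as high as 0.102) and for CDKB1;2 with ABA in skip-1 (without each library in turn, adjusted p as high as 0.227). With no filter on low counts the latter gave an adjusted p of 0.0561, and with DESeq2 0.127. CDKB1;1 (AT3G54180, chr3:20059671-20061488), its paralog and a kinase known from divisions of the stomatal lineage, was measured at 6.77 and 5.71 CPM in WT mock, 8.91 and 7.31 in WT ABA, 10.6 and 7.24 in skip-1 mock, and 7.88 and 8.27 in skip-1 ABA. WT mock was its lowest group, below every other library, and no comparison was called (smallest adjusted p = 0.115, skip-1 against wild type without ABA).

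CDKB2;1 (AT1G76540, chr1:28720328-28722550), which with CDKB2;2 is known to maintain the shoot meristem, was measured at 18.9 and 16.3 CPM in WT mock, 14.2 and 13.01 in WT ABA, 19.9 and 16.9 in skip-1 mock, and 15.1 and 15.5 in skip-1 ABA. ABA libraries were below mock libraries in both genotypes, and the value in wild type, −0.37 ± 0.14, missed the threshold (edgeR, adjusted p = 0.0519). CDKB2;2 (AT1G20930, chr1:7292389-7294746) was measured at 11.01 and 9.802 CPM in WT mock, 8.07 and 9.35 in WT ABA, 13.7 and 10.7 in skip-1 mock, and 10.02 and 11.4 in skip-1 ABA. WT ABA was below every other library, and no comparison was called. Reads from stretches that the paralogs of each pair share could be split between them by the counting, and all 4 CDKB genes overlap an opposite-strand gene. That neighbour held 967 to 1395 reads per library for CDKB1;1 and 174 to 279 for CDKB1;2. It held 3 to 44 for CDKB2;1 and 0 to 2 for CDKB2;2.

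KRP proteins inhibit cyclin-CDK complexes. With ABA in wild type 2 of 7 fell (19.5% of all genes) and 1 rose (23.7%), and in skip-1 1 rose (16.3%). KRP2 (AT3G50630, chr3:18800306-18801595), known to restrain lateral root initiation, was measured at 13.2 and 15.6 CPM in WT mock, 18.9 and 20.2 in WT ABA, 13.8 and 13.9 in skip-1 mock, and 18.2 and 20.1 in skip-1 ABA. ABA libraries were above mock libraries in both genotypes, and the genotypes overlapped. It rose by 0.44 ± 0.13 in wild type and by 0.47 ± 0.13 in skip-1 (edgeR, adjusted p = 0.0207 and 0.0249). KRP1 (AT2G23430, chr2:9976590-9978090), reported to be induced by ABA, was measured at 15 and 15.96 CPM in WT mock, 24.99 and 19.3 in WT ABA, 21.2 and 14.5 in skip-1 mock, and 29.6 and 22.99 in skip-1 ABA. It lay above mock in both ABA groups, and its values of 0.52 ± 0.21 and 0.56 ± 0.21 missed the threshold (adjusted p = 0.0833 and 0.0845). KRP4 (AT2G32710, chr2:13873362-13876737), linked to cell size control in the shoot meristem, was measured at 23.7 and 22.9 CPM in WT mock, 12.8 and 16.9 in WT ABA, 24.6 and 27.6 in skip-1 mock, and 19.7 and 21.5 in skip-1 ABA. It fell by 0.65 ± 0.15 in wild type (adjusted p = 0.00686), where WT ABA was below every other library, and was higher in skip-1 with ABA by 0.47 ± 0.15 (adjusted p = 0.0395). KRP4 overlaps the opposite-strand gene AT2G32720 by 926 bases, and that gene held 695 to 1029 reads per library.

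KRP3 (AT5G48820, chr5:19792270-19794480) was measured at 3.36 and 2.15 CPM in WT mock, 1.24 and 1.57 in WT ABA, 2.805 and 2.49 in skip-1 mock, and 1.78 and 2.499 in skip-1 ABA. WT ABA was its lowest group, and it fell there by 0.97 ± 0.32 (edgeR, adjusted p = 0.0366). KRP7 (AT1G49620, chr1:18365336-18366744), of a pair known from the germ line, was measured at 2.7 and 1.94 CPM in WT mock, 1.19 and 1.72 in WT ABA, 4.01 and 2.16 in skip-1 mock, and 2.19 and 1.77 in skip-1 ABA, and KRP6 (AT3G19150, chr3:6616330-6617951), the other of the pair, at 10.6 and 9.48 CPM in WT mock, 11.1 and 13.1 in WT ABA, 10.9 and 8.42 in skip-1 mock, and 11.2 and 8.99 in skip-1 ABA. The groups of KRP6 overlapped except with ABA in wild type, where its ABA libraries were above its mock libraries. Those of KRP7 overlapped with ABA in skip-1 and between genotypes without ABA. Both WT ABA libraries of KRP7 were below those of WT mock and of skip-1 ABA. Neither gene was called. KRP5, known from endoreduplication in roots and hypocotyls, ranged from 2.202 to 3.29 CPM with all groups overlapping. The class sum was 70.8 to 85.3 CPM over the 8 libraries. KRP4 in wild type was called without each library in turn, and the other calls of the class were not. These were KRP2 with ABA in wild type (without WT mock replicate 1 or WT ABA replicate 1 or 2, adjusted p as high as 0.169) and KRP2 with ABA in skip-1 (without skip-1 mock replicate 1 or 2 or skip-1 ABA replicate 1 or 2, adjusted p as high as 0.144). The remaining ones were KRP3 with ABA in wild type (without WT mock replicate 1 or WT ABA replicate 1 or 2, adjusted p as high as 0.211) and KRP4 between genotypes with ABA (without WT mock replicate 1 or 2, WT ABA replicate 1 or skip-1 ABA replicate 1 or 2, adjusted p as high as 0.201). With scaling by library size alone KRP2 in wild type gave an adjusted p of 0.156. DESeq2 called KRP2 in neither genotype (adjusted p = 0.0579 in wild type and 0.0511 in skip-1), nor KRP3 in wild type (0.0603) or KRP4 between genotypes with ABA (0.0512).

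SIM, the SIAMESE inhibitor that stops trichome cells from dividing and sends them into endoreduplication, was called in all 4 pairwise comparisons by edgeR and in 2 of them by DESeq2. SIM (AT5G04470, chr5:1266625-1267416) was measured at 22.6 and 29.3 CPM in WT mock, 19.3 and 19.2 in WT ABA, 16.7 and 19.8 in skip-1 mock, and 9.93 and 9.59 in skip-1 ABA. Skip-1 ABA was the lowest group and WT mock the highest, and WT ABA and skip-1 mock overlapped between them. It fell with ABA by 0.43 ± 0.15 in wild type (edgeR, adjusted p = 0.045) and by 0.90 ± 0.15 in skip-1 (adjusted p = 0.00315). It was lower in skip-1 by 0.51 ± 0.15 without ABA (adjusted p = 0.0441) and by 0.98 ± 0.16 with ABA (adjusted p = 0.00277), and the interaction of −0.47 ± 0.21 was not called (adjusted p = 0.266). The calls with ABA in skip-1 and between genotypes with ABA passed without each library in turn. The other calls did not, namely SIM with ABA in wild type (without WT mock replicate 2, WT ABA replicate 1 or 2 or skip-1 ABA replicate 1 or 2, adjusted p as high as 0.31) and SIM between genotypes without ABA (without WT mock replicate 2, WT ABA replicate 1 or 2, skip-1 mock replicate 1 or 2 or skip-1 ABA replicate 1 or 2, adjusted p as high as 0.269), and DESeq2 made neither of these (adjusted p = 0.0682 and 0.0535). SMR1 (AT3G10525, chr3:3281306-3282131), the related inhibitor that sets giant cells in sepals, was measured at 19.7 and 19.8 CPM in WT mock, 29.2 and 19.7 in WT ABA, 23.7 and 20.8 in skip-1 mock, and 29.7 and 18.2 in skip-1 ABA. Its groups overlapped in 3 of 4 comparisons and none was called (smallest adjusted p = 0.364). SIM and SMR1 overlap opposite-strand genes by 338 and 375 bases, and these partners are not among the features counted. Whether reads of these partners were counted for SIM or SMR1 cannot be told.

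WEE1 (AT1G02970, chr1:673306-676419), the kinase that holds CDKs inactive when DNA replication is disturbed, was measured at 4.61 and 4.46 CPM in WT mock, 4.404 and 2.72 in WT ABA, 6.17 and 6.396 in skip-1 mock, and 3.37 and 4.13 in skip-1 ABA. In skip-1 the ABA libraries were below the mock libraries, and it fell by 0.74 ± 0.24 (edgeR, adjusted p = 0.0483). In wild type its value was −0.35 ± 0.25 (adjusted p = 0.294), with an interaction of −0.40 ± 0.34 (adjusted p = 0.572). Leaving out libraries removed the call for WEE1 with ABA in skip-1 (without WT mock replicate 1 or 2, skip-1 mock replicate 1 or 2 or skip-1 ABA replicate 1 or 2, adjusted p as high as 0.215), and DESeq2 did not make it (adjusted p = 0.0699).

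Over all classes, 20 of the 35 genes were called in at least 1 of the 5 comparisons and 15 in none. Of all genes, 43.1% and 28.5% were called with ABA in wild type and in skip-1. Between genotypes it was 20.5% without ABA and 31% with it, and 3.07% for the interaction. Shares of all genes called at least once, or in both genotypes, were not computed. The counts in this paragraph are therefore not a result about the 35 genes. With ABA, 6 fell in both genotypes (CDKB1;2, CYCA1;1, CYCD3;1, CYCD3;2, CYCD3;3 and SIM), and KRP2 rose in both. Another 7 fell and passed the test in wild type (CYCB1;2, CYCB2;4, CYCA2;3, CYCA2;4, CYCD1;1, KRP3 and KRP4) and WEE1 passed it in skip-1, and for none of these was the difference between genotypes called. Of 37 calls, 7 passed without each library in turn and 22 were made by DESeq2 as well.

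Other parts of the cell cycle were taken from lists of genes, described without a set test. Of all tested genes, with ABA 19.5% fell and 23.7% rose in wild type, and 12.1% fell and 16.3% rose in skip-1. Relative to wild type, 10% were lower in skip-1 and 10.4% higher without ABA, and 17.4% and 13.6% with it. Counts of the lists and markers below stand beside these shares, and a count near its share is not a result about the list. Among 16 tested cyclins and CDKs outside the 35, with ABA 3 fell and 1 rose in wild type and 2 fell in skip-1, with medians of −0.18 and −0.18. CYCA3;4, of the A3 group, had −0.67 ± 0.13 in wild type (edgeR, adjusted p = 0.00385) and was called without each library in turn. CAK1AT, the CDK-activating kinase also called CDKF;1, was lower in skip-1 by 0.58 ± 0.10 without ABA and by 0.58 ± 0.10 with ABA (adjusted p = 0.00667 and 0.00441), and the former was lost without WT mock replicate 2 (adjusted p = 0.0554). CYCA3;3 held no read, and AT1G20590 and CYCD7;1 held too few to be tested. In skip-1 relative to wild type, 1 of the 16 was lower and 1 higher without ABA, and 1 was lower and 4 higher with it.

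Of the 7 other SIAMESE-RELATED inhibitors, 2 rose with ABA in wild type (23.7% of all genes) and 1 in skip-1 (16.3%). List medians were 0.01 and −0.31. Between genotypes, 1 was higher in skip-1 without ABA and 1 was lower with it. SMR5 (AT1G07500), known to be induced by DNA damage and oxidative stress, was measured at 0.208 and 0.203 CPM in WT mock, 1.93 and 1.93 in WT ABA, 2.72 and 1.18 in skip-1 mock, and 2.78 and 2.68 in skip-1 ABA. WT mock, with 5 reads in each library, was below every other library. It rose with ABA in wild type by 3.20 ± 0.51 and was higher in skip-1 without ABA by 3.23 ± 0.50 (edgeR, adjusted p = 0.00113 and 0.00435), and both were called without each library in turn. These values rest on few counts. The interaction was −2.73 ± 0.64 (adjusted p = 0.0586). AT5G02420 rose by 1.86 ± 0.19 in wild type (adjusted p = 8.89e-05), called without each library in turn, and by 0.84 ± 0.19 in skip-1 (adjusted p = 0.0106, lost without skip-1 ABA replicate 1 at 0.0737).

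Of 13 E2F, RBR and MYB3R genes, 5 rose with ABA in wild type (23.7% of all genes) and 2 in skip-1 (16.3%). None fell (19.5% and 12.1% of all genes), and medians were 0.08 and 0.26. The retinoblastoma homolog RBR1 was measured at 50.2 and 48.3 CPM in WT mock, 86.2 and 79.7 in WT ABA, 56.2 and 53.4 in skip-1 mock, and 70.8 and 68.1 in skip-1 ABA. Its ABA libraries were above its mock libraries in both genotypes. It rose by 0.75 ± 0.09 in wild type (edgeR, adjusted p = 0.00024) and by 0.34 ± 0.09 in skip-1 (adjusted p = 0.0223), the latter lost without any 1 of the 4 skip-1 libraries (up to 0.114). MYB3R-3, a MYB that binds the MSA core, rose by 0.72 ± 0.13 in wild type (adjusted p = 0.00203). E2F1, known as E2FB, rose by 0.85 ± 0.19 there (adjusted p = 0.0061). Both were called without each library in turn. In skip-1 relative to wild type, 2 of 13 were higher without ABA, and 2 were higher and 1 lower with it.

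Among 18 genes of DNA replication, with ABA 2 fell and 1 rose in wild type (19.5% and 23.7% of all genes). In skip-1, 4 fell and 1 rose (12.1% and 16.3%), and medians were −0.11 in wild type and −0.28 in skip-1. Relative to wild type, 3 were higher in skip-1 without ABA and 1 was lower with it. TSO2, a small subunit of ribonucleotide reductase, was measured at 90.6 and 90.8 CPM in WT mock, 76.5 and 64.9 in WT ABA, 201 and 195 in skip-1 mock, and 87.6 and 73.6 in skip-1 ABA. Skip-1 mock stood far above the other groups. TSO2 was higher in skip-1 without ABA by 1.12 ± 0.12 and fell with ABA in skip-1 by 1.29 ± 0.12 (edgeR, adjusted p = 0.000932 and 0.000116), and both were called without each library in turn. Its interaction of −0.94 ± 0.17 was called (adjusted p = 0.0268), but not without WT mock replicate 1 or 2, WT ABA replicate 1 or skip-1 ABA replicate 2 (up to 0.109), nor with scaling by library size alone (0.0552). The related RNR2A rose with ABA by 0.96 ± 0.12 in wild type and by 0.69 ± 0.12 in skip-1 (adjusted p = 0.000263 and 0.00273). PCNA1, the replication clamp, fell by 0.80 ± 0.14 in skip-1 (adjusted p = 0.00348).

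Of 22 genes of mitosis and cytokinesis, with ABA 4 fell and 3 rose in wild type (19.5% and 23.7% of all genes). In skip-1, none fell and 2 rose (12.1% and 16.3%), and medians were −0.28 in wild type and −0.06 in skip-1. In skip-1 relative to wild type none was called without ABA, and 4 were higher and 1 lower with it. TES, a kinesin of the cell plate, rose by 1.15 ± 0.15 in wild type (edgeR, adjusted p = 0.000392) and by 0.70 ± 0.15 in skip-1 (adjusted p = 0.0095, lost without skip-1 ABA replicate 1 at 0.0576). UBC19 and UBC20, a pair of ubiquitin-conjugating enzymes that serve the anaphase-promoting complex, had values of 0.58 ± 0.11 and −0.45 ± 0.10 in wild type (adjusted p = 0.00324 and 0.00616). Of 5 activators and inhibitors of the anaphase-promoting complex, FZR2, also called CCS52A1, rose by 0.39 ± 0.12 and UVI4-LIKE, also called OSD1, fell by 1.04 ± 0.31 with ABA in wild type (adjusted p = 0.0311 and 0.0244), and none was called in the other comparisons. Both calls were lost without WT mock replicate 1 or 2 or WT ABA replicate 1 (up to 0.213 and 0.105).

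Markers of dividing and other tissues had negative medians with ABA in both genotypes, as the 35 genes did. Between genotypes the medians of the marker lists differed in sign. Of 14 tested meristem and young-organ genes, 7 fell and 1 rose with ABA in wild type (19.5% and 23.7% of all genes). In skip-1, 3 fell (12.1%), and medians were −0.85 in wild type and −0.40 in skip-1. Between genotypes, 1 was higher in skip-1 without ABA, and 4 were higher and 1 lower with it (medians 0.02 and 0.69). Their 16 listed genes summed to 108 and 99.4 CPM in WT mock, 50.3 and 56.6 in WT ABA, 133 and 115 in skip-1 mock, and 82.6 and 100.5 in skip-1 ABA. The stem-cell markers CLV3 and WUS were at or near 0 in every library and were not tested. Of 10 root genes, 7 fell and 1 rose in each genotype with ABA (medians −0.88 and −0.82), with sums of 95.5 to 105 CPM in WT mock, 59.8 to 63.2 in WT ABA, 89.5 to 93.8 in skip-1 mock and 54.4 to 66.8 in skip-1 ABA. Of 7 genes of the stomatal lineage, which divides in young leaves, 5 fell with ABA in wild type and 2 in skip-1 (medians −0.58 and −0.39), and their sums were 79.8 and 81.5, 44.98 and 43.6, 65.7 and 56.9, and 43.5 and 46.2 CPM in the same order of groups. In skip-1 relative to wild type, 2 stomatal genes were lower without ABA, and 1 was lower and 1 higher with it. Their medians were −0.38 and −0.22, where those of the 35 genes were 0.22 and 0.33. Of the root genes, 1 was lower and 1 higher in skip-1 without ABA, and 1 was lower with it (medians −0.18 and 0.22). The part of these tissues in the changes of the cyclins was not tested.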

How the data were processed

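RNA-seq was analysed for 8 libraries of whole seedlings, 2 in each of 4 groups of genotype and ABA. The authors deposited raw read counts per gene and, in a companion table, FPKM, checked to be the count over gene length and over the sum of its column. Per the submitters' processing notes, Bowtie2 2.2.3, TopHat2 2.0.12 and HTSeq 0.6.1 were used with TAIR10, and the sources used here give neither their roles nor options nor strand setting. The main comparisons used edgeR 4.0.16 in R 4.3.3 (with limma 3.58.1) on the counts, with the filter on low counts of filterByExpr, TMM scaling, 1 fit of all 4 groups with 4 residual degrees of freedom and no replicate block, the quasi-likelihood F test, and Benjamini-Hochberg adjustment over all 21008 tested features. A gene was called at an adjusted p of 0.05. The fit was tested on simulated data. CPM were computed on TMM-scaled library sizes, a fold change is log2, and its standard error was approximated as its size over the square root of F.

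The 35 members and the other gene lists were chosen with earlier results of these data known. Values in every library are given for all members of classes of up to 6 and for the 6 with the smallest adjusted p in larger classes, and from the other lists up to 3 genes per list and comparison with the smallest adjusted p. Gene symbols, overlapping genes and promoters came from RefSeq TAIR10.1. The alternatives were DESeq2 1.42.0, its size factors in edgeR, scaling by library size alone, no filter on low counts, the replicate number as a block, and leaving out each library in turn.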

Additional observations from a re-analysis of the deposited data

How the results depend on the processing

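Of the 35 genes, 13 fell and 1 rose with ABA in wild type, and the range was 4 to 14 and 0 to 2 without each library in turn. In skip-1, 7 fell and 1 rose, with ranges of 2 to 6 and 0 to 1. In skip-1 relative to wild type without ABA, 3 were lower and 1 higher, with ranges of 0 to 2 and 0 to 3, and with ABA 3 were lower and 8 higher, with ranges of 2 to 3 and 0 to 9. Genes called over the whole table ranged from 6585 to 9368 (9061 with all libraries) for ABA in wild type, 3532 to 5625 (5978) for ABA in skip-1, 1383 to 3785 (4297) without ABA, 3521 to 6851 (6504) with ABA and 121 to 608 (644) for the interaction. DESeq2 gave 10 lower and 0 higher members for ABA in wild type (28.6% and 0% beside 17.6% and 21.3% of all genes). In skip-1 it gave 6 lower and 0 higher (17.1% and 0% beside 10.3% and 15%). Between genotypes without ABA it gave 1 lower and 1 higher (2.86% each beside 9.42% and 9.19%). With ABA it gave 3 lower and 4 higher (8.57% and 11.4% beside 15.5% and 11.8%). The members' share that was higher with ABA was then near the background. For the interaction DESeq2 called 1201 genes. Of the members' 37 calls, DESeq2 did not make 15, library-size scaling 2 and the fit without a filter 1, while DESeq2's size factors in edgeR kept all. Scaling by library size gave 18 lower and 0 higher members for ABA in wild type (51.4% and 0% beside 31.7% and 17.8% of all genes). The cause of these differences was not tested.

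Equal replicate numbers are not said to pair samples, and their deviations correlated at 0.111 to 0.258 over all genes and at −0.13 to 0.47 over the 35. With the replicate block, 15 members fell and 2 rose with ABA in wild type (42.9% and 5.71% beside 21.7% and 25.4% of all genes). In skip-1, 9 fell and 2 rose (25.7% and 5.71% beside 15.2% and 18.6%). Relative to wild type without ABA, 3 were lower and 5 higher in skip-1 (8.57% and 14.3% beside 13.3% and 13.1%). With ABA, 3 were lower and 12 higher (8.57% and 34.3% beside 20.7% and 16.1%). Genes called over the whole table rose too, to 9892, 7093, 5548 and 7735 in these 4 comparisons and 1357 for the interaction. No call of a member was lost, while 14 were gained. Among them were KRP1 in both genotypes (edgeR, adjusted p = 0.0252 and 0.0194) and CYCD1;1 and CYCA2;4 in skip-1 (0.00183 and 0.0291). The depth of 20870110 to 23640113 reads left CYCA2;1 with 3 to 27 reads per library.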
